A study of Mus musculus with 6 samples.

Results

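Expression of 41 genes of the extracellular matrix and of fibrosis was examined in the mouse heart. They were taken by symbol from a fixed list of 15 collagens, 8 matrix glycoproteins, 2 elastic fibre proteins, 5 small leucine-rich proteins, 3 crosslinking enzymes, 2 proteases, 3 protease inhibitors and 3 TGF-β ligands, and all 41 were found among the 24346 genes listed. Heart RNA of C57BL/6J male mice was sequenced in 6 libraries, 2 in each of 3 groups. Mice on normal chow formed the C group. The NASH diet, rich in fat, cholesterol and sucrose and containing bile acid, was given to the N group, and NP mice received it with pemafibrate at 0.1 mg/kg, a selective modulator of the nuclear receptor PPARα. The labels give 3 weeks of feeding for every group, the study's methods give a longer time, and no age was stated. Within the N and NP groups replicate 1 was supplied under a name that gives the tissue and replicate 2 under one that gives 3 weeks, so whether both were taken at the same time is uncertain, and the means and errors of these groups rest on both. The tissue is labelled heart, although the extraction protocol in the labels names the liver. Values below are given for replicate 1 and then replicate 2 of C, N and NP.

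The extracellular matrix of the heart is made mainly by fibroblasts. Collagens I and III form the fibrils that bear tension, collagen V regulates fibril assembly, collagen IV forms the sheet of the basement membrane around cardiomyocytes and vessels, and small leucine-rich proteins such as decorin bind fibrils and limit their width. Lysyl oxidases crosslink the fibres, the matrix metalloproteinases MMP2 and MMP14 cleave matrix proteins, and TIMPs inhibit these proteases. TGF-β ligands are stored in the matrix in a latent form, and their release drives fibroblasts to make more of it, which is the classical route to fibrosis.

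The values are FPKM, fragments per kilobase of transcript scaled to the mapped fragments of the library, so that levels can be compared between genes per length. From the step that a single read adds, the C libraries held about 26100000 and 21300000 reads and the N and NP libraries between 8220000 and 8760000, so depth and diet cannot be told apart in comparisons with the C group. The summed FPKM of 8 atrial genes was 34.0 and 59.2 in the C libraries against 1787 to 3089 in the other 4, and that of 7 epicardial genes was 10.2 and 2.19 against 23.7 to 36.3, so that atrial and epicardial content and diet cannot be told apart either (*Upk3b* is on both lists). The cardiomyocyte genes that define heart muscle were abundant in every library. The sum of 8 cardiomyocyte genes was nonetheless higher in C (56779 and 59986) than in the other 4 libraries (40617 to 50885). Among these 8, only *Myl2* and *Myl3* were higher in both C libraries than in each of the other 4, and the rest overlapped. Hepatocyte genes stood out in C replicate 2 (a sum of 623 over 8 genes, against 51.5 in C replicate 1 and 11.7 to 18.5 elsewhere). The sum of 12 fibroblast markers was 313 and 311 in C, 389 and 346 in N, and 334 and 349 in NP, and none of the 11 tested passed in any comparison. For 10 markers of activated fibroblasts it ran from 90.3 to 138, with none of 9 tested passing. None of 8 smooth muscle and pericyte genes (sums of 305 to 390.0) passed either. Of 8 adipocyte genes tested none passed the adjusted threshold, but 6 were higher in N than C without overlap and at an unadjusted *P* under 0.05. Their defining gene *Adipoq* was at 0.593 and 1.125 FPKM in C, 15.96 and 14.6 in N, and 1.66 and 11.9 in NP, so that adipocyte content and diet cannot be told apart between N and C. Its part in the results below was not tested.

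All 41 genes were above 0 in every library. The small leucine-rich protein *Dcn* (decorin) had the highest level, at (FPKM) 349 and 434 in C, 446 and 497 in N, and 421 and 521 in NP, and it made up between 23.9% and 33.1% of the summed FPKM of the 41 genes. The other genes with a mean above 100 FPKM were *Sparc*, *Bgn*, *Col4a1* and *Timp3*. *Col3a1*, the collagen III chain, was the most abundant fibrillar collagen, with a mean of 57.2 FPKM over the 6 libraries. The highest of each further role were *Col6a2* among the other collagens, *Eln* (elastin) among the elastic fibre proteins, *Loxl1* among the crosslinking enzymes, *Mmp2* among the proteases and *Tgfb1* among the ligands. At the other end, *Tnc* (tenascin C, a glycoprotein of injured and remodelling tissue) and *Col12a1* lay under a mean of 0.5 FPKM and were not tested. *Tnc* measured (FPKM) 0.214 and 0.146 in C, 0.573 and 0.265 in N, and 0.437 and 0.238 in NP. *Col12a1*, a collagen of the fibril surface, measured (FPKM) 0.180 and 0.215 in C, 0.412 and 0.358 in N, and 0.325 and 0.488 in NP. These values rest on about 14 to 38 reads for *Tnc* and 30 to 53 for *Col12a1*. Both were low throughout, and both were lower in each C library than in each N library.

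**Figure D1:**
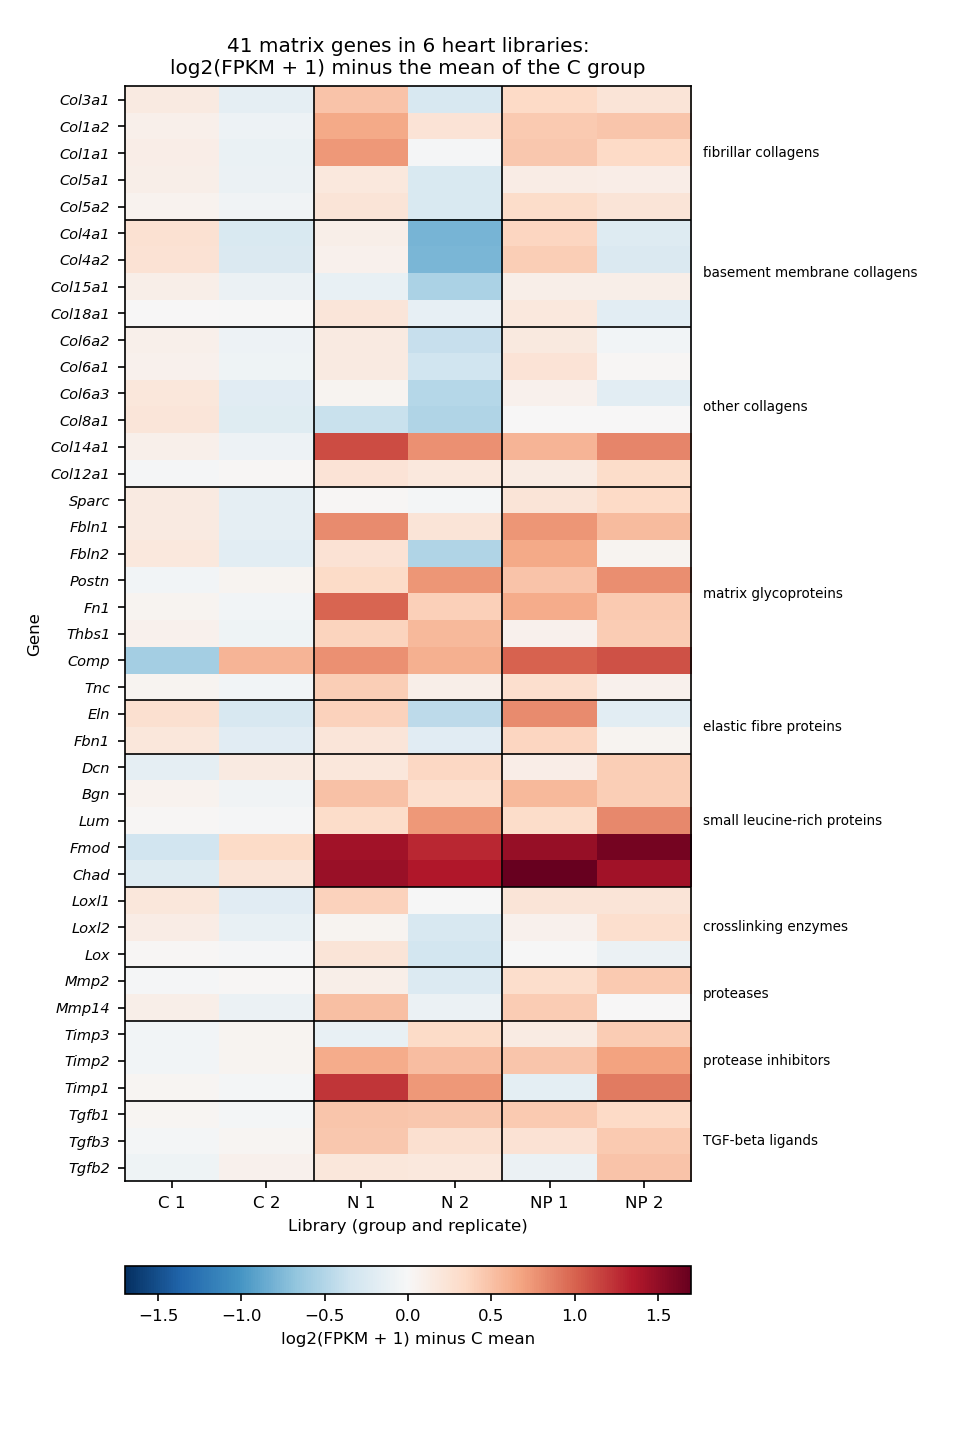
Each row is one of the 41 genes, ordered by role, and each column is 1 library; colour gives log2(FPKM + 1) minus the mean of the C group, red for higher and blue for lower. *Chad* and *Fmod* are the darkest genes in all 4 libraries of the NASH diet, and N replicate 2 is pale or blue for most collagens.

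Differences were computed on log2(FPKM + 1) and tested with limma on the 12923 genes whose mean reached 0.5 FPKM, with Benjamini-Hochberg adjustment over all of them. Of the 41 genes, 39 were tested. Setting the N group against the C group addresses the diet. Of the 39 genes, 1 passed an adjusted *P* of 0.05 and was higher in N. Of all genes tested 1.55% passed, 1.48% being higher and 0.0696% lower. The median difference of the 39 genes was 0.18 on the log2 scale, against -0.03 over all genes tested, with 24 genes above 0 and 15 below. After scaling to the same total FPKM these were 34 above and 5 below, with a median of 0.30 against 0.12 over all genes tested. At an unadjusted *P* under 0.05 stood 12 genes that were higher and 1 that was lower, 33.3% of the 39 against 15% of all genes tested. Without overlap, both N values exceeded both C values for 17 genes and fell short of them for 2, while 22.5% of all genes tested lay above and 27% below. The N libraries were unlike each other here. Relative to the C mean, the median of the 39 genes was 0.31 in N replicate 1 and -0.02 in N replicate 2, and without N replicate 1 the median difference was -0.020. In a bulk sample, more cells of a type and more RNA per cell cannot be told apart.

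The gene that passed was *Chad*, which encodes chondroadherin, a small leucine-rich protein known mainly from cartilage and tendon that binds collagen and integrin. It measured (FPKM) 0.288 and 0.732 in C, 3.14 and 2.85 in N, and 3.85 and 3.0 in NP, or about 11, 23, 40, 37, 47 and 37 reads. Each of the 4 libraries of the NASH diet lay above both C libraries. The mean rose from 0.510 ± 0.314 in the C group to 2.99 ± 0.203 in the N group (SD, n = 2), a difference of 1.42 on the log2 scale (SE 0.19, adjusted *P* = 0.0297 by limma). The call was lost when any 1 library was left out (limma adjusted *P* between 0.0572 and 0.147) and when only the 4 libraries of both groups entered the fit (adjusted *P* = 0.0580 by limma), although *Chad* was higher in N each time. *Chad* (GRCm38.p6, chr11:94565047-94569127) lies within *Acsf2*, which is on the opposite strand, and whether the authors counted by strand was not stated. *Acsf2* did not show this pattern, at (FPKM) 22.0 and 21.4 in C, 19.7 and 16.2 in N, and 18.7 and 18.1 in NP.

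*Fmod* (chr1:134037254-134048280) encodes fibromodulin, which binds collagen I and is abundant in tendon and cartilage. It measured (FPKM) 1.47 and 2.86 in C, 7.29 and 6.51 in N, and 7.61 and 8.48 in NP. Like *Chad*, it was higher in each library of the NASH diet than in both C libraries, but its log2 difference of 1.36 for N over C (SE 0.22) had a limma adjusted *P* of 0.0577. *Comp*, the cartilage oligomeric matrix protein, is another gene known from these tissues. It measured (FPKM) 1.16 and 3.81 in C, 4.54 and 3.92 in N, and 5.45 and 5.81 in NP. The C libraries differed by more than any other pair, the lowest N library was close to C replicate 2, and the difference of 0.70 did not exceed the spread between replicates (SE 0.36, adjusted *P* = 0.435 by limma). For all 3 of these genes the lower C library was replicate 1.

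Markers of tendon, cartilage and valve cells were low in these libraries. All 14 markers listed were found, 5 of them passed the filter, and their summed FPKM was 8.34 and 9.53 in C, 11.9 and 13.9 in N, and 10.4 and 16.9 in NP. Between 4 and 6 of the 14 were at 0 in each library, and the defining markers *Tnmd*, *Acan*, *Kera*, *Matn1* and *Matn3* did not exceed 0.139 FPKM in any. *Scx*, a transcription factor of tendon and valve progenitors, ranged from 4.31 to 6.06 FPKM with overlapping groups. *Cilp2*, a cartilage matrix gene, was at 0.0495 and 0.144 FPKM in C, 2.16 and 2.97 in N, and 1.61 and 5.47 in NP. The summed atrial and epicardial genes were low in both C libraries, as *Chad* and *Fmod* were. Of them, 5 of 8 atrial and 1 of 7 epicardial genes passed as higher in N than C. Between the C libraries, the atrial sum was lower in replicate 1, like *Chad* and *Fmod*, but the epicardial sum was lower in replicate 2. The part of these cells in the difference of *Chad* or *Fmod* was not tested.

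The sequences before the starts of *Chad* and *Fmod* are shown because these are the genes with the largest differences. They are the 250 bases upstream of the RefSeq start in GRCm38.p6, the mm10 assembly, on the plus strand, at chr11:94564797-94565046 for *Chad* and chr1:134037004-134037253 for *Fmod*. The *Chad* window holds no annotated exon and lies in an intron of *Acsf2*, and no annotated gene covers the *Fmod* window. Capitals mark the TATA box TATAAA in the first window, and in the second the motif CAGAC on either strand. CAGAC reads GTCTG on the other strand and is a motif recognised by the SMAD proteins that carry TGF-β signals.
Chad: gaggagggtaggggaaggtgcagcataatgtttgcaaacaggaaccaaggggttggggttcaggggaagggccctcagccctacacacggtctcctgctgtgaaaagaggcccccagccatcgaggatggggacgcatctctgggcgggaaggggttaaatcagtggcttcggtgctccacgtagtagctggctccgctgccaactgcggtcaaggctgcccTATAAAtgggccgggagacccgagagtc
Fmod: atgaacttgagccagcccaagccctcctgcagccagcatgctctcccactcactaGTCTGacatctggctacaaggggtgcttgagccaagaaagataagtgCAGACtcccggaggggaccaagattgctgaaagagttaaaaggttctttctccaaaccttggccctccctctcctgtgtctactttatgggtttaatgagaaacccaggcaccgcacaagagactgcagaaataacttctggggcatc
In the *Chad* window TATAAA began at position -28 from the start. Neither CAGAC nor GTCTG was present there, although the shorter GTCT and AGAC were. In the *Fmod* window GTCTG began at -195 and CAGAC at -148, and no TATAAA was present. A window was found for 26 of the 41 genes. These 26 genes have 31 windows, since some have more than 1. Searched on both strands, TATAAA or its reverse complement TTTATA occurred in 12.4% of all 32851 windows of this length. It occurred in 6 of the 31 windows, before 5 of the 26 genes (*Chad*, *Col3a1*, *Postn*, *Tgfb2* and *Tnc*). CAGAC or GTCTG occurred in 42.2% of all windows and in 15 of the 31, before 14 of the 26 genes. These short matches are descriptions of the letters and not evidence of binding.

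The other small leucine-rich proteins had smaller differences. *Bgn* (biglycan, a close relative of decorin) measured (FPKM) 106 and 98.2 in C, 145 and 125 in N, and 149.6 and 137 in NP. Its log2 difference for N over C was 0.40 (SE 0.12, adjusted *P* = 0.225 by limma), with no overlap between the groups. *Lum* (lumican) ranged from 25.8 to 46.7 FPKM, with a difference of 0.52 for N over C (adjusted *P* = 0.340 by limma), and *Dcn* from 349 to 521, with 0.27 (adjusted *P* = 0.499 by limma). In all 5 genes of this role the N values exceeded the C values without overlap, as they did in 22.5% of all genes tested. The median of these 5 genes relative to the C mean was 0.50 and 0.73 in N and 0.55 and 0.82 in NP.

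**Figure D2:**
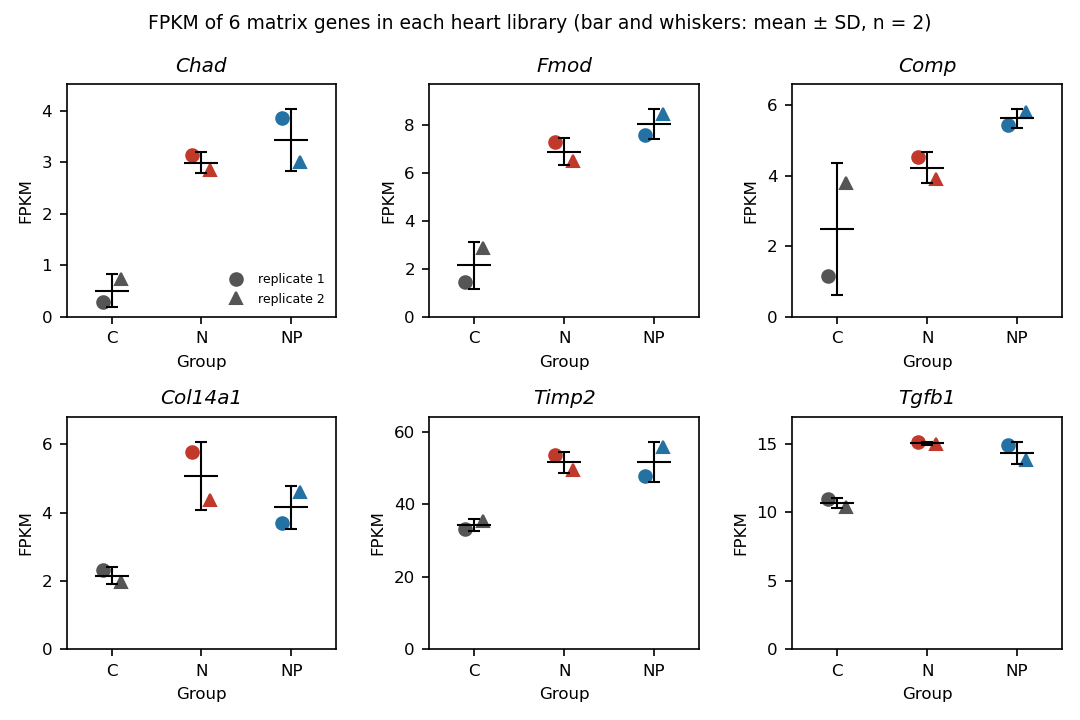
FPKM of *Chad*, *Fmod*, *Comp*, *Col14a1*, *Timp2* and *Tgfb1* by group; circles are replicate 1, triangles replicate 2, and the bar with whiskers is the mean ± SD of the 2 libraries. For *Chad*, *Fmod*, *Col14a1*, *Timp2* and *Tgfb1* every N and NP point lies above both C points, while the C points of *Comp* are far apart.

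Among the glycoproteins and the minor collagens, *Col14a1* (collagen XIV, which associates with the surface of fibrils) measured (FPKM) 2.32 and 1.98 in C, 5.79 and 4.38 in N, and 3.71 and 4.60 in NP. Its log2 difference for N over C was 0.94 (SE 0.17, adjusted *P* = 0.0736 by limma), the third largest test statistic of the 39 genes. *Fn1* (fibronectin) measured (FPKM) 9.56 and 8.90 in C, 19.3 and 12.6 in N, and 14.8 and 12.9 in NP. The N libraries of *Fn1* were far apart, and the log2 difference was 0.70 (SE 0.20, adjusted *P* = 0.205 by limma). *Postn* (periostin, a product of activated fibroblasts) measured (FPKM) 13.3 and 14.2 in C, 17.5 and 23.8 in N, and 19.6 and 24.4 in NP, a log2 difference of 0.54 for N over C (adjusted *P* = 0.257 by limma). *Thbs1* (thrombospondin 1, an activator of latent TGF-β) had a log2 difference of 0.46 (adjusted *P* = 0.264 by limma). Of the 7 glycoproteins tested, 5 were higher in N without overlap, against 22.5% of all genes tested. They were *Fn1*, *Postn*, *Thbs1*, *Comp* and *Fbln1*, the latter from 26.3 to 52.0 FPKM. *Sparc* (141 to 198 FPKM) and *Fbln2* (20.6 to 47.4 FPKM) overlapped, and none of the 7 passed the adjusted threshold.

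The fibrillar collagens showed how much the 2 N libraries differed. *Col1a1*, a chain of collagen I and a usual marker of fibrosis, measured (FPKM) 25.9 and 22.1 in C, 40.3 and 23.6 in N, and 33.4 and 30.4 in NP. N replicate 1 was the highest of the 6 libraries, but N replicate 2 lay between the 2 C libraries. The log2 difference for N over C was 0.36 (SE 0.25, adjusted *P* = 0.571 by limma), and it was -0.020 without N replicate 1. *Col1a2*, the other chain of collagen I, measured (FPKM) 31.2 and 27.3 in C, 46.4 and 34.3 in N, and 39.9 and 40.9 in NP, a log2 difference of 0.44 (adjusted *P* = 0.296 by limma) with no overlap. *Col3a1* measured (FPKM) 57.2 and 46.3 in C, 72.1 and 42.6 in N, and 65.0 and 60.2 in NP. Here the N libraries were the highest and the lowest of all 6, and the log2 difference of 0.11 was -0.27 without N replicate 1 and -0.04 without C replicate 2. *Col5a1* and *Col5a2* stayed between 6.66 and 10.3 FPKM.

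The collagen IV chains of the basement membrane differed mainly between the libraries of a group. *Col4a1* measured (FPKM) 135 and 93.5 in C, 120.0 and 64.4 in N, and 145 and 96.3 in NP. *Col4a2* measured (FPKM) 95.3 and 67.2 in C, 84.5 and 46.4 in N, and 107 and 67.5 in NP. In each group replicate 2 was well below replicate 1, and neither gene passed in any comparison. The summed FPKM of 8 endothelial genes was also lower in replicate 2, at 376 and 362 in C, 430.0 and 335 in N, and 449 and 351 in NP. Among these 8, *Emcn* went the other way in every group, *Tek* and *Vwf* in C, and *Egfl7* slightly in N. The sum of 8 smooth muscle and pericyte genes was lower too, at 354 and 336 in C, 326 and 305 in N, and 390.0 and 354 in NP. Of these, *Myh11*, *Cnn1* and *Smtn* went the other way in N and NP, *Abcc9* in C, and *Kcnj8* in NP. The part of either kind of cell was not tested. *Col15a1* and *Col8a1* (collagens of vessel walls and basement membranes) were the 2 genes that were lower in N without overlap. *Col8a1* measured (FPKM) 7.29 and 5.25 in C, 4.54 and 4.03 in N, and 6.25 and 6.26 in NP, a log2 difference of -0.45 for N over C (SE 0.16, adjusted *P* = 0.281 by limma). *Col15a1* measured (FPKM) 28.1 and 24.4 in C, 23.8 and 17.8 in N, and 28.2 and 28.0 in NP, a difference of -0.33 (adjusted *P* = 0.410 by limma). The summed FPKM of the 15 collagens was 478 and 372 in C, 498 and 307 in N, and 532 and 424 in NP, so that the groups overlapped. *Col18a1* (3.61 to 5.06 FPKM) and the collagen VI genes *Col6a1* (22.9 to 34.5 FPKM), *Col6a2* (24.1 to 36.2 FPKM) and *Col6a3* (4.63 to 8.04 FPKM) overlapped between N and C as well.

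*Col4a1* and *Col4a2* are transcribed in opposite directions from one site. In GRCm38.p6 the RefSeq starts used here, at 11312826 on the minus strand and 11312805 on the plus strand of chromosome 8, lie 21 bases apart. The full RefSeq extent of *Col4a1* reaches further, to 11312889. With the starts used here, the first exons overlap in the 22 bases chr8:11312805-11312826, shown on the plus strand.
Col4a1 and Col4a2: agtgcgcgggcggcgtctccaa
The levels of both chains varied together in these libraries. *Col4a1* varied 2.25-fold over the 6 libraries, whereas its ratio to *Col4a2* stayed between 1.35 and 1.43. The ratio of *Col6a1* to *Col6a2*, neighbouring genes on chromosome 10 whose products join in collagen VI, stayed between 0.900 and 0.954. The ratio of *Col1a1* to *Col1a2*, which lie on different chromosomes, ranged from 0.687 to 0.869. A ratio within a library is not affected by the scaling of that library. Other pairs differed between groups, although they were chosen after their values were seen and are given without a test. The ratio of *Col3a1* to *Col1a1* was 2.21 and 2.10 in C, 1.79 and 1.81 in N, and 1.95 and 1.98 in NP. The ratio of *Timp2* to *Mmp2*, an inhibitor and a protease that bind each other, was 1.37 and 1.43 in C, 2.03 and 2.38 in N, and 1.58 and 1.66 in NP. In both cases the 3 groups did not overlap, and the NP group lay between the other two. The ratio of *Timp2* to *Mmp14*, the other protease of the set, was 3.47 and 4.35 in C, 4.13 and 6.09 in N, and 3.93 and 6.27 in NP, and there the groups overlapped.

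**Figure D3:**
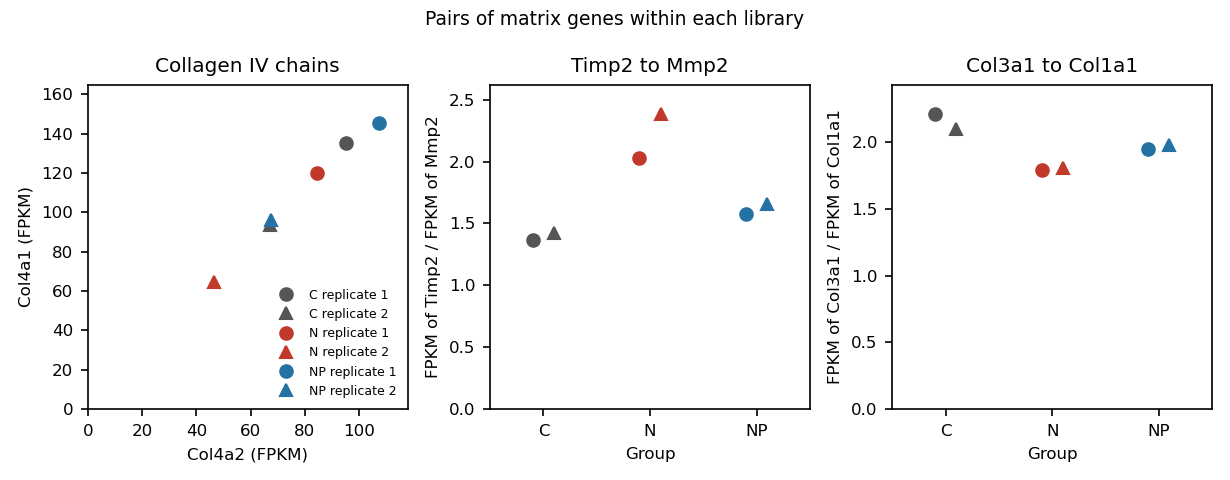
Left, FPKM of *Col4a1* against *Col4a2* in the 6 libraries; middle and right, the ratio of *Timp2* to *Mmp2* and of *Col3a1* to *Col1a1* by group, with circles for replicate 1 and triangles for replicate 2. The collagen IV points fall along a line, with N replicate 2 lowest, and the ratios of the 2 libraries of a group lie closer to each other than to those of the other groups.

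None of the 3 inhibitors and 3 TGF-β ligands passed in any comparison. *Timp2* measured (FPKM) 33.0 and 35.4 in C, 53.6 and 49.6 in N, and 47.9 and 55.7 in NP, a log2 difference of 0.58 for N over C (SE 0.12, adjusted *P* = 0.106 by limma). *Timp1*, the inhibitor induced in inflamed tissue, measured (FPKM) 2.64 and 2.45 in C, 7.21 and 4.88 in N, and 2.15 and 5.52 in NP. Both N libraries were above both C libraries, with a log2 difference of 0.97 (SE 0.35, adjusted *P* = 0.284 by limma), while the NP libraries stood on both sides, on about 12 and 32 reads. *Timp3* ranged from 83.9 to 125 FPKM, and N and C overlapped. *Tgfb1* measured (FPKM) 11.0 and 10.4 in C, 15.1 and 15.0 in N, and 14.9 and 13.8 in NP, a log2 difference of 0.46 (SE 0.10, adjusted *P* = 0.126 by limma). *Tgfb3* measured (FPKM) 6.04 and 6.38 in C, 8.89 and 7.74 in N, and 7.56 and 8.78 in NP, a difference of 0.37 (adjusted *P* = 0.267 by limma). For both ligands every library of the NASH diet lay above both C libraries, and *Tgfb2*, at 1.55 to 2.83 FPKM, had a difference of 0.18 (adjusted *P* = 0.752 by limma). The crosslinking enzymes *Lox* (1.36 to 2.41 FPKM), *Loxl1* (11.7 to 17.9 FPKM) and *Loxl2* (5.36 to 8.39 FPKM) overlapped between N and C, as did the proteases *Mmp2* and *Mmp14* (8.13 to 12.97 FPKM) and the elastic fibre genes *Eln* and *Fbn1* (9.69 to 14.8 FPKM). Macrophage genes, whose cells also make *Timp1* and *Tgfb1*, had a summed FPKM over 9 genes of 348 and 315 in C, 632 and 539 in N, and 261 and 229 in NP, with 4 of the 9 passing as higher in N than C and 6 as lower in NP than N, and their contribution was not tested.

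**Figure D4:**
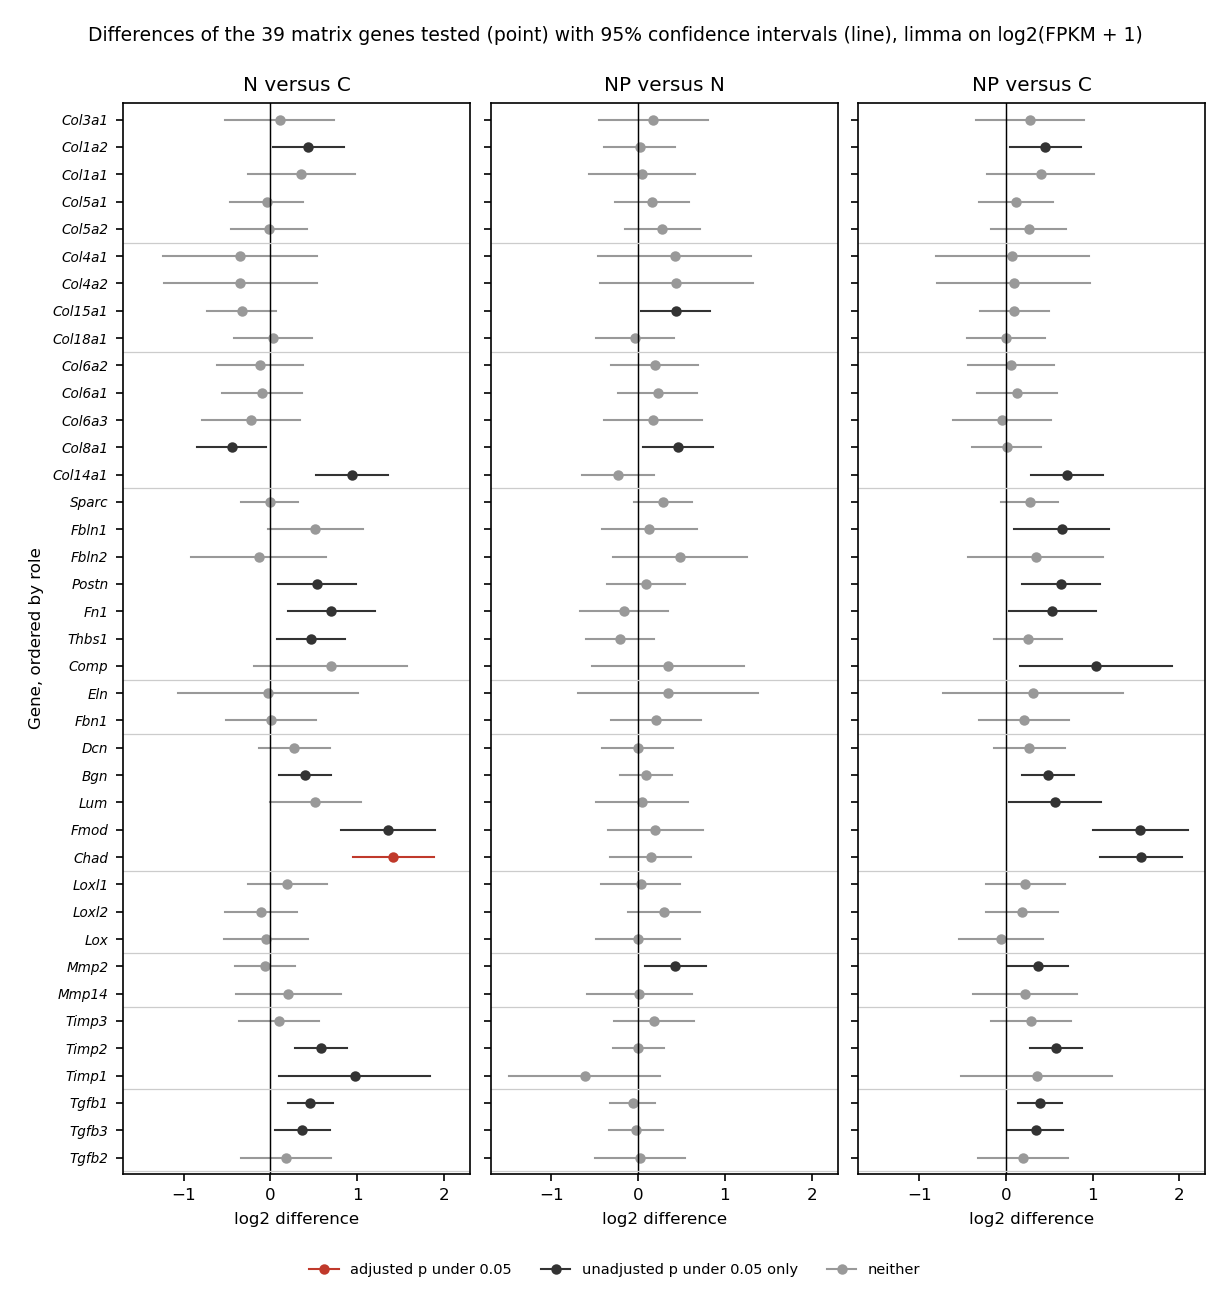
Points are log2 differences of the 39 genes tested in each comparison, lines are 95% confidence intervals from limma, red marks an adjusted *P* under 0.05 and black an unadjusted *P* under 0.05 only. *Chad* for N over C is the only red gene, and the points of *Chad* and *Fmod* are near 0 for NP over N.

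Setting the NP group against the N group addresses pemafibrate on the NASH diet. None of the 39 genes passed, whereas 1.39% of all genes tested passed, all of them lower in NP and 0% higher. At an unadjusted *P* under 0.05, 3 genes were higher and none was lower, 7.69% of the 39 against 8.04% of all genes. The median difference was 0.14, against 0.03 over all genes tested, and 30 of 39 genes were above 0 (26 after scaling to the same total FPKM). Without overlap, 7 genes were higher in NP and 1 (*Tgfb1*) lower, against 15.2% and 14.7% of all genes tested. The gene with the largest test statistic was *Mmp2*, a gelatinase, at 26.4 and 20.8 FPKM in N and 30.3 and 33.5 in NP, against 24.1 and 24.8 in C. Its log2 difference was 0.43 (SE 0.14, 95% confidence interval 0.08 to 0.78, adjusted *P* = 0.451 by limma). *Col8a1* and *Col15a1*, given above, differed by 0.46 (SE 0.16, adjusted *P* = 0.511 by limma) and 0.43 (SE 0.16, adjusted *P* = 0.555 by limma), and their NP values overlapped with those of C. *Sparc*, a collagen-binding protein, measured (FPKM) 174 and 141 in C, 158 and 153 in N, and 182 and 198 in NP, a difference of 0.29 (SE 0.13, adjusted *P* = 0.734 by limma). *Timp1* had the lowest difference, -0.62 (SE 0.35, 95% confidence interval -1.49 to 0.25, adjusted *P* = 0.845 by limma). The genes with the 3 largest test statistics for N over C differed less for NP over N, by 0.14 for *Chad* (95% confidence interval -0.33 to 0.61), 0.20 for *Fmod* (-0.35 to 0.74) and -0.23 for *Col14a1* (-0.65 to 0.18). These intervals do not show that the groups are alike.

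Because the replicates of N and NP may differ in time, the difference was also taken within each number. Within replicate 1 the median difference of the 39 genes was 0.02, and 21 were higher in the NP library. Within replicate 2 the median was 0.27, and 36 were higher. Of the 39 genes, 21 were higher in both (53.8%, against 33.6% of all genes tested) and 3 were lower in both (7.69%, against 26.1%). Without N replicate 2 the median difference between the groups was -0.021, and without N replicate 1 it was 0.31, so that its size rests on the low level of these genes in N replicate 2.

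The comparison of the NP group with the C group shares the C libraries with that of N and C. None of the 39 genes passed, whereas 0.0387% of all genes tested passed, all higher in NP and 0% lower. At an unadjusted *P* under 0.05, 14 genes were higher and none was lower, 35.9% of the 39 against 8.05% of all genes. Without overlap, NP exceeded C for 22 genes and lay below it for none, while 19.5% of all genes tested lay above and 23% below. The median difference was 0.28, against -0.01 over all genes, and 37 of 39 genes were above 0. The largest differences were those of *Chad* (1.56, SE 0.19, adjusted *P* = 0.154 by limma), *Fmod* (1.55, SE 0.22, adjusted *P* = 0.194 by limma), *Comp* (1.04, SE 0.36, adjusted *P* = 0.557 by limma) and *Col14a1* (0.71, SE 0.17, adjusted *P* = 0.469 by limma). For *Timp2* the difference was 0.58 (SE 0.12, adjusted *P* = 0.427 by limma) and for *Bgn* 0.48 (SE 0.12, adjusted *P* = 0.496 by limma). The small leucine-rich proteins and the glycoproteins had the highest medians of the roles with at least 5 genes tested, 0.56 and 0.54, and the fibrillar collagens had 0.28 with no overlap between the groups for any of the 5.

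The 2 libraries of a group differed in a direction that many of the 39 genes shared. In all 3 groups 21 of the genes were lower in replicate 2 than in replicate 1, among them *Eln*, *Col4a2*, *Col4a1*, *Fbln2* and *Mmp14*. Another 3 were higher (*Dcn*, *Postn* and *Timp3*) and 15 were mixed. The share of all genes that kept 1 direction in all 3 groups was not computed. By group, 29 of the 39 were lower in replicate 2 in C, 34 in N and only 22 in NP. Of 12004 genes tested with a known length, 5819, 6296 and 6179 were lower. *Eln* measured (FPKM) 16.2 and 10.7 in C, 17.6 and 9.38 in N, and 23.8 and 11.5 in NP, so in every group the replicates differed by more than the group means. Longer transcripts tended to be lower in replicate 2. Across the 39 genes, which share the libraries and are not independent, the Spearman correlation of the difference with transcript length was -0.50 in C, -0.47 in N and -0.35 in NP, against -0.11, -0.19 and -0.26 across 12004 genes tested. The labels do not say what the replicate numbers stand for.

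**Figure D5:**
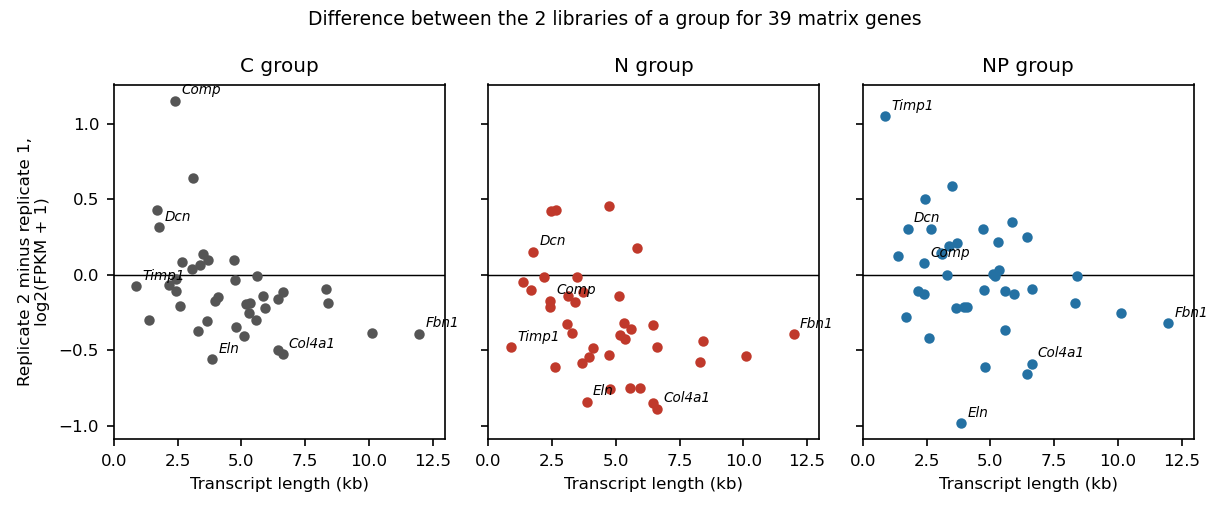
For the 39 genes, the difference between replicate 2 and replicate 1 in log2(FPKM + 1) is plotted against transcript length in kilobases, in a panel for each group. Most points lie below 0 in the C and N groups, *Eln* and *Col4a1* are low in all panels, and *Dcn* is above 0 in all panels.

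The wider TGF-β and matrix pathways were described with lists of genes outside the 41. *Acta2*, a TGF-β target gene that encodes the smooth muscle actin of myofibroblasts, measured (FPKM) 40.2 and 32.7 in C, 58.3 and 67.7 in N, and 49.8 and 53.6 in NP, a difference of 0.78 for N over C (adjusted *P* = 0.0793 by limma). Of 22 TGF-β receptors and regulators tested, none passed in any comparison. Their median difference for N over C was 0.14, and the largest test statistic was that of *Lrrc32*, which tethers latent TGF-β to the cell surface, at 0.54 for N over C (adjusted *P* = 0.114 by limma) and -0.45 for NP over N (adjusted *P* = 0.263 by limma).

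Of 45 other structural matrix genes tested none passed. For N over C 25 were above 0, and for NP over N 40 were, against 44.8% and 55.8% of all genes tested. These counts were not repeated without N replicate 2. *Podn* (podocan), a further small leucine-rich protein, measured (FPKM) 4.73 and 4.74 in C, 11.8 and 11.6 in N, and 12.6 and 19.5 in NP, a difference of 1.15 for N over C (adjusted *P* = 0.0670 by limma). *Ecm1*, a secreted glycoprotein, followed at 0.80 (adjusted *P* = 0.125 by limma). Of 18 other proteases and inhibitors tested, *Ctss* alone passed, for N over C and for NP over N. It encodes cathepsin S, an elastin-degrading protease of macrophages, and it measured (FPKM) 21.1 and 20.2 in C, 64.6 and 63.3 in N, and 14.7 and 16.5 in NP. *Ctss* rose by 1.58 in N against C (adjusted *P* = 0.00285 by limma, and 0.0519 without C replicate 2) and fell by 1.97 in NP against N (adjusted *P* = 0.00136 by limma). *Timp4*, an inhibitor among these 18, measured (FPKM) 64.3 and 64.6 in C, 35.3 and 24.4 in N, and 46.1 and 29.1 in NP. Unlike *Timp1* and *Timp2*, it was lower in N than C without overlap, by -1.11 (SE 0.26, adjusted *P* = 0.131 by limma). None of the 19 matrix receptors and none of the 16 genes of collagen processing and crosslinking passed in any comparison. Nearest for N over C was *Cd44*, the hyaluronan receptor (0.75, adjusted *P* = 0.0879 by limma).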

How the data were processed

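Total RNA of heart was sequenced in 75-base single-end reads from stranded mRNA libraries. The authors mapped the reads to mm10 with TopHat2 2.0.13, Bowtie2 2.2.3 and SAMtools 0.1.19, and the deposited values are FPKM per gene from Cufflinks 2.2.1. Read counts were not used here. Groups and replicate numbers came from the sample titles. The labels do not say that the libraries of a group come from separate animals, so *P* values measure only the spread between these libraries.

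FPKM were taken as log2(FPKM + 1), which understates the differences of low genes, and only genes averaging at least 0.5 FPKM were kept. A linear model with 3 groups and 3 residual degrees of freedom was fitted with limma 3.58.1 in R 4.3.3 (empirical Bayes with trend, Benjamini-Hochberg over all 12923 genes, threshold 0.05), and the fit was tested on simulated data. With 2 libraries a group, the smallest exact permutation *P* is 0.333, and no such test was run. Medians over genes are descriptions. Depth was estimated from values of up to 5 reads of genes with 1 transcript in GENCODE M21, with 200 bases taken off the length, and 70.8% to 76.7% of these values lay within 0.1 of a whole read. Transcript lengths are those of the protein-coding transcript with the longest coding sequence in M21. Upstream sequences are from RefSeq (GRCm38.p6).

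The 41 genes, the other gene and marker lists, the tests and the alternatives were chosen with earlier results of these data known. Genes given in full are those that passed, otherwise the 5 with the largest moderated test statistic in a comparison, those under the filter, the most abundant of a role and, from other lists, those that passed or the 2 with the largest statistic; further genes were added after their values were seen. The counts of the TGF-β target gene list are not reported here. The 2 sequence motifs were chosen after the windows were seen. Alternatives were another pseudocount (0.1), other filters (none, or a mean of 2), quantile, total and median scaling, the replicate number as a block, fewer libraries in the fit, no trend, and leaving out each library in turn. Python 3.11.15 with numpy 2.4.6, pandas 2.3.3, scipy 1.17.1 and matplotlib 3.10.9 was used for tables and figures.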

Additional observations from a re-analysis of the deposited data

How the results depend on the processing

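Between the N and C groups 1 of the 39 genes passed in the main fit, as did 200 of all 12923 genes tested. Without a filter 0 of 41 passed, against 183 of 17880 genes. With only the libraries of the 2 groups 0 of 39 passed, against 167 of 12923. After scaling to the same total 4 of 39 passed (*Chad*, *Col14a1*, *Fmod* and *Timp2*), against 312 of 12923. How the call of *Chad* changed without each library is given above. Leaving out a library of a group leaves 1, which was assumed to vary like the other groups. Scaling to the same total moved the median of all genes to 0.12 from -0.03 between the N and C groups, and with it the median difference of the 39 genes between the NP and C groups was 0.43. Without each library in turn the median of the 39 genes ranged from -0.020 to 0.31 for N over C and from -0.021 to 0.31 for NP over N. The difference between the N and C groups then ranged from -0.020 to 0.73 for *Col1a1* and from -0.27 to 0.48 for *Col3a1*. The causes were not tested. No gene passed between the NP and N groups under any alternative run. *Chad* was above C in the N group under every alternative run, by 1.20 to 1.63 without each library in turn. Genes on few reads, such as *Chad* in the C group and *Timp1*, are limited by the depth.

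The replicate numbers are shared between groups, and their pairing was checked. Across 12923 genes the difference between replicates 2 and 1 correlated with a Pearson r of 0.46 for N with NP, 0.05 for C with N and 0.12 for C with NP. With 2 numbers this does not establish a pairing. With the replicate number as a block over all libraries, 2 of the 39 genes passed between the N and C groups (*Chad* and *Fmod*). With the block applied to N and NP only, 9 passed (*Bgn*, *Chad*, *Col14a1*, *Fmod*, *Fn1*, *Lum*, *Postn*, *Tgfb1* and *Timp2*), all higher in the N group. Of all 12923 genes tested, 200 passed without a block, 328 with the former block and 1100 with the latter. Between the NP and C groups 1 gene (*Chad*) passed with the latter block, and between the NP and N groups 0 passed with either block.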
